A study of Mus musculus with 6 samples.

Results

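Macroautophagy is the route by which cells enclose cytoplasm, protein aggregates and pieces of organelles in a double membrane, the autophagosome, and deliver them to lysosomes. A kinase complex built on ULK1 starts the process, a lipid kinase complex that contains Beclin 1 marks the membrane, ubiquitin-like conjugation reactions attach LC3 and GABARAP to it, and receptors such as p62 bring in the cargo. In B lineage cells, autophagy is known for its part in the survival of memory B cells and plasma cells and for limiting the endoplasmic reticulum (ER) of antibody-secreting cells. The genes described here are 10 named components of this route, *Ulk1*, *Becn1*, *Wipi2*, *Atg7*, *Atg5*, *Atg12*, *Atg16l1*, *Map1lc3b*, *Gabarap* and *Sqstm1*, out of 54446 genes with a normalized count. They were chosen by name, with earlier results of these data known. All 10 were among the 12322 genes that could be compared between genotypes, that is, those averaging 10 normalized counts or more across libraries.

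The values come from Illumina sequencing of ribodepleted total RNA of primary B cells from *Tent5c* KO mice (genotype label TENT5C KO) and their wild-type (WT) littermates, on a mixed C57BL/6J X CBA background, from heterozygous matings. The mice used for sequencing were 12 to 15 weeks old. *Tent5c* encodes a cytoplasmic poly(A) polymerase. Naive splenic B cells of both genotypes were cultured for 7 days in the presence of IL-4 at 20 ng/ml, with LPS added at 20 µg/ml, so no unstimulated cells stand beside them. In such bulk samples, fewer cells of a type and less RNA per cell cannot be told apart. There were 3 libraries of each genotype, and the KO and WT libraries of a replicate, which came from littermates and share a batch number in the labels, are called pairs 1, 2 and 3 here. The libraries held 5393558 to 6793520 fragments assigned to genes. A normalized count is the number of fragments on a gene divided by the size factor of its library, so a change shared by most genes cannot be seen. *Tent5c* itself had 1255, 767 and 1584.5 normalized counts in WT libraries (pairs 1, 2 and 3), and 1993, 993 and 1170.4 in the libraries labelled KO. The sources used here do not say which bases of the gene were changed, so its level does not check the labels, and KO in the following means labelled KO. The 7 B cell markers were all present, with a summed level of 52694 to 94654 normalized counts in WT and 45521 to 88659 in KO libraries. Of 6 plasma cell markers, *Tnfrsf17* was below the filter. The T cell and myeloid marker lists summed to at most 194 and 166 normalized counts in any library. The only T cell marker past the filter was *Lck* (60.2 to 166). Of the myeloid markers, *Lyz2* (2.86 to 85.9), *Cd68* (26.4 to 75.9) and *Adgre1* (14.3 to 37.8) passed it, and *S100a8*, *S100a9* and *Elane* were at 0 in all 6 libraries. Of the 7 erythroid markers, 5 were at 0 throughout (*Hba-a1*, *Hba-a2* and *Hbb-bs* among them), and the list summed to at most 4.72.

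To show what lies upstream of the gene with the smallest *p*-value, of a gene lower by a like ratio in every pair and of a gene near 0, the bases before the annotated starts of *Sqstm1*, *Map1lc3b* and *Atg5* are printed from the RefSeq promoter windows (build GRCm38.p6), which were found for 7 of the 10 genes and not for *Atg12*, *Atg16l1* and *Becn1*. Each sequence reads 5′ to 3′ on the strand of its gene. It stops before both the RefSeq and the Gencode start, and capitals mark a GC box (GGGCGG) or an E-box (CACGTG), the letters to which TFEB and its relatives, transcription factors of lysosome and autophagy genes, can bind. The *Sqstm1* run lies on the minus strand at chr11:50210828-50211070, the *Map1lc3b* run on the plus strand at chr8:121590188-121590360 and the *Atg5* run on the plus strand at chr10:44268089-44268338.
Sqstm1: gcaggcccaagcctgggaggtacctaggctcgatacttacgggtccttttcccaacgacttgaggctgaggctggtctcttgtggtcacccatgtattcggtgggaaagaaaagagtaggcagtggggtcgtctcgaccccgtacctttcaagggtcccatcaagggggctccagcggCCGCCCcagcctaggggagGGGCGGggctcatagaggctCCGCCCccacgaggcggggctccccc
Map1lc3b: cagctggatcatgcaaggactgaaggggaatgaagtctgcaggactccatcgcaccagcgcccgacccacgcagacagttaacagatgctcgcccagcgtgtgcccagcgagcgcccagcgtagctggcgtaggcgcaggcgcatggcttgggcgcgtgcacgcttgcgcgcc
Atg5: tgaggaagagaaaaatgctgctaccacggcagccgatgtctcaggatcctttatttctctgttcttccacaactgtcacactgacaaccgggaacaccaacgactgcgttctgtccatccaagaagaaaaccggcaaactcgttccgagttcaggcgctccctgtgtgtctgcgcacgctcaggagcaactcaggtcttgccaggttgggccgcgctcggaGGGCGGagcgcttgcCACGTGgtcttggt

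Searched on both strands of the 250 bases before each RefSeq start, the E-box letters were in the windows of 2 of the 7 genes, *Atg5* (14 bases before the start) and *Atg7* (132 bases before it), and in 6.02% of all 32851 windows. The *Map1lc3b* window has a GC box too, but past the Gencode start and so not in the run above. The RefSeq start of *Atg7* lies 27999 bases inside the Gencode gene, that of *Wipi2* 1886 and that of *Gabarap* 227. The *Atg7* and *Wipi2* windows thus lie wholly inside their Gencode genes. The *Sqstm1* window held 3 GC boxes and no E-box, and GC boxes were in the windows of 5 of the 7 genes and in 32.7% of all windows. An antioxidant response element, written as TGACNNNGC and known as a site of the stress factor NRF2, was in 10.2% of all windows and in 0 of the 7, and a FOXO element, TGTTTAC, in 3.17% of all windows and in 0 of the 7. A match describes letters only, and its absence says only that these letters are not in this window.

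Levels can be set against each other only per length, and Sqstm1 and Gabarap stood far above the rest. Per 1000 bases of annotated exon, the mean over the 6 libraries was 531 normalized counts for *Sqstm1* (386 to 676) and 438 for *Gabarap* (392 to 514). These overlapped, and *Sqstm1* was the higher one in 5 of 6 libraries. *Becn1* followed with 109.8 per 1000 bases of exon, then *Atg5* with 79.4, *Map1lc3b* with 53.7, *Atg16l1* with 47.9 and *Wipi2* with 47.7. The last 3 of these could not be ordered, since their libraries overlapped from one gene to the next. *Atg12* had 26.1, *Atg7* 22.0 and *Ulk1* 14.9 per 1000 bases of exon, and *Atg12* and *Atg7* overlapped. The exons of a gene summed over all annotated transcripts can be far longer than its main mRNA. With the length of the principal transcript instead, *Sqstm1* (874 per 1000 bases), *Gabarap* (598) and *Ulk1* (18.5) kept their places in the order. *Wipi2*, whose exons span 10543 bases against 1959 in its principal transcript, then ranked in place 3 with 257, and *Atg5* in place 7 with 79.4.

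No autophagy gene passed the test between genotypes. The comparison used limma on log2(normalized count + 1) with the pair as a block, two-sided, and with Benjamini-Hochberg adjustment over the 12322 genes, in which 0% of all genes were called lower and 0% higher in KO at an adjusted *p* of 0.05. Adjusted *p*-values of the 10 genes lay between 0.970 and 0.992. At an unadjusted *p* under 0.05, 2 of the 10 were lower (*Sqstm1* and *Gabarap*) and 0 higher, where 3.03% of all genes tested were lower and 1.67% higher (4.7% in either direction). In edgeR the same count was 2 and in DESeq2 it was 1, and neither tool called any of the 10 at an adjusted *p* of 0.05, where DESeq2 called 0.222% of genes lower and 0.0101% higher and edgeR 0%. *Atg7*, *Map1lc3b*, *Gabarap* and *Sqstm1* (4 of 10) were below WT in each of the 3 pairs, against 13.1% of all genes tested. No gene of the 10 was higher in all 3 pairs, against 11.7% of all genes, and 24.8% of all genes kept 1 direction in the 3 pairs. The median log2 fold change of the 10 was −0.018, beside 0.00067 over all genes tested.

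**Figure D1:**
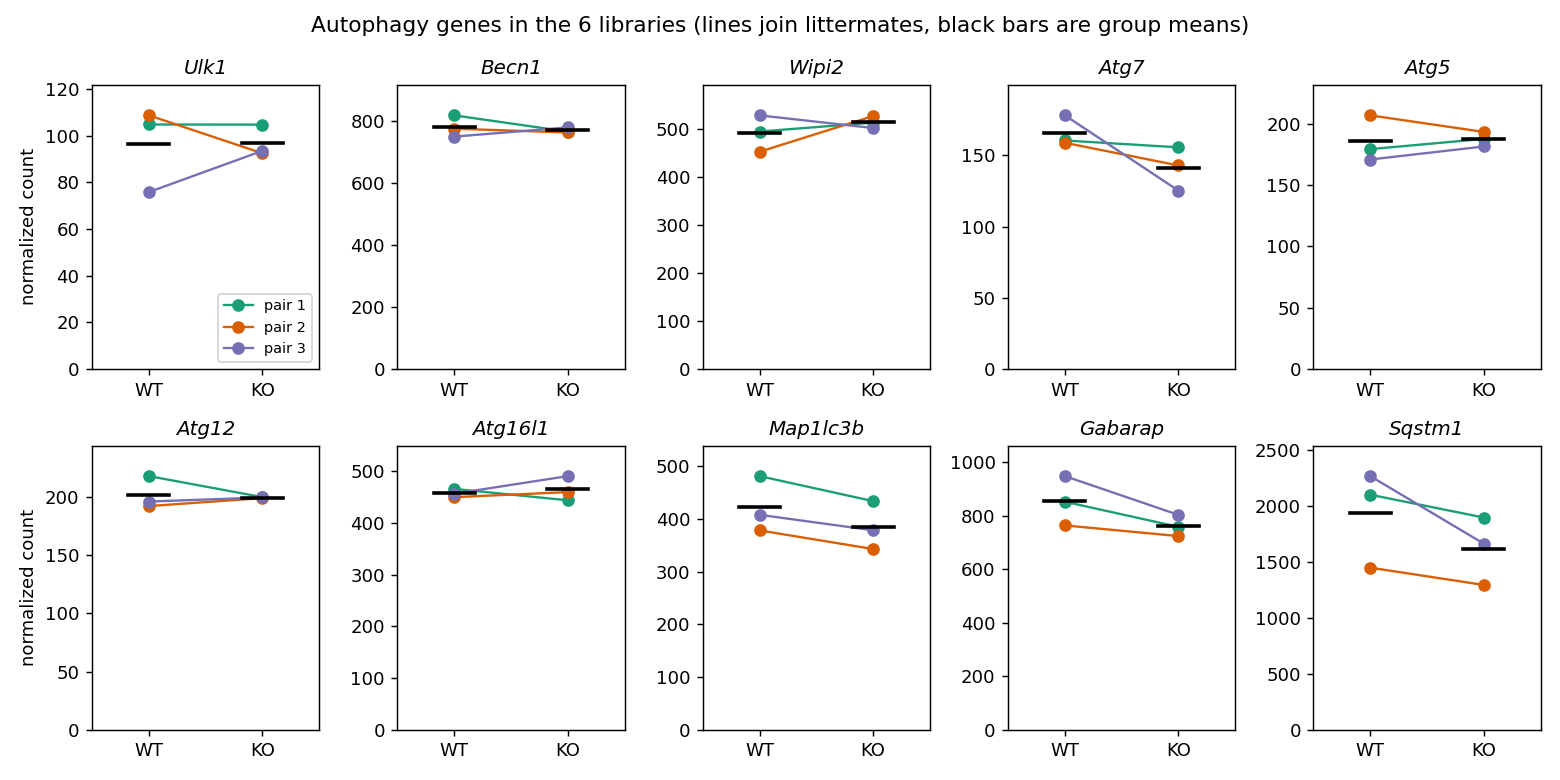
Normalized counts (y axis, from 0, a separate scale for each gene) of the 10 autophagy genes in the WT and KO libraries, with 1 colour per pair, lines between the libraries of a pair and black bars for the group means (n = 3). All 3 lines slope down to KO for *Atg7*, *Map1lc3b*, *Gabarap* and *Sqstm1*, while those of the other 6 genes point in different directions, and the *Sqstm1* libraries of pair 2 sit below those of the other pairs in both genotypes.

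*Sqstm1* (ENSMUSG00000015837, minus strand of chromosome 11 of GRCm38, 50199366 to 50210827) encodes p62, the receptor that binds ubiquitinated cargo and LC3 and is itself degraded with the cargo. It had 2103, 1450.2 and 2269.6 normalized counts in the WT libraries of pairs 1, 2 and 3 and 1899, 1295 and 1665 in the KO libraries. Pair 2 was the lowest in both genotypes and the groups overlapped, but within each pair the KO library was the lower one. The KO/WT ratio was 0.903, 0.893 and 0.734, a mean of 0.843 ± 0.0950 (SD, n = 3 pairs). The log2 fold change was −0.25 (standard error 0.08, 95% interval −0.44 to −0.064, unadjusted *p* = 0.0161 and adjusted *p* = 0.970 from limma), the smallest *p*-value of the 10 genes and the one ranked 200th among all genes tested. In limma without the pairs as a block the unadjusted *p* was 0.233, and without pair 3 the log2 fold change was −0.16. The summed level of the plasma cell markers was also lowest in pair 2 in both genotypes (7906 normalized counts in WT and 8049 in KO) and also had its lowest KO/WT ratio in pair 3 (0.577), while its ratios in pairs 1 and 2 were 1.45 and 1.02. Its part in the *Sqstm1* difference was not tested.

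LC3B and GABARAP are the small ubiquitin-like proteins that become attached to the lipids of the autophagosome, where they hold receptors such as p62. *Gabarap* (ENSMUSG00000018567, plus strand of chromosome 11, 69991143 to 69994951) had 852, 763 and 948 normalized counts in WT and 758, 723 and 803 in KO libraries of pairs 1, 2 and 3. The highest KO library exceeded the lowest WT library, of pair 2, so the groups overlapped. The KO/WT ratio was 0.890, 0.948 and 0.847, which gave a log2 fold change of −0.16 (standard error 0.07, 95% interval −0.32 to −0.00050, unadjusted *p* = 0.0495 and adjusted *p* = 0.970 from limma). In limma with no block the unadjusted *p* of *Gabarap* was 0.126, and in DESeq2 with the block it was 0.196. Of the 13 alternative settings given at the end, 3 had an unadjusted *p* under 0.05 for *Gabarap* and 10 for *Sqstm1*.

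*Map1lc3b* (ENSMUSG00000031812, plus strand of chromosome 8, 121590361 to 121598760) had 482, 378 and 408 normalized counts in WT and 434, 343 and 379 in KO libraries of pairs 1, 2 and 3. Its ratios were the most alike of the 10 genes, at 0.901, 0.907 and 0.928, a mean of 0.912 ± 0.0139 (SD, n = 3 pairs). The pairs lay further apart than the genotypes, with pair 1 highest and pair 2 lowest in both. The log2 fold change was −0.13 (standard error 0.07, 95% interval −0.31 to 0.041, unadjusted *p* = 0.113 from limma). Other genes of the family had log2 fold changes of −0.091 (*Map1lc3a*), −0.0044 (*Gabarapl1*) and 0.026 (*Gabarapl2*), none of them in the same direction in all 3 pairs. Reads with low mapping quality were not counted, which can lower genes with near-identical copies, and copies of like sequence were not searched for. By position, none of the 10 genes had exons that overlap those of another annotated gene on the same strand.

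**Figure D2:**
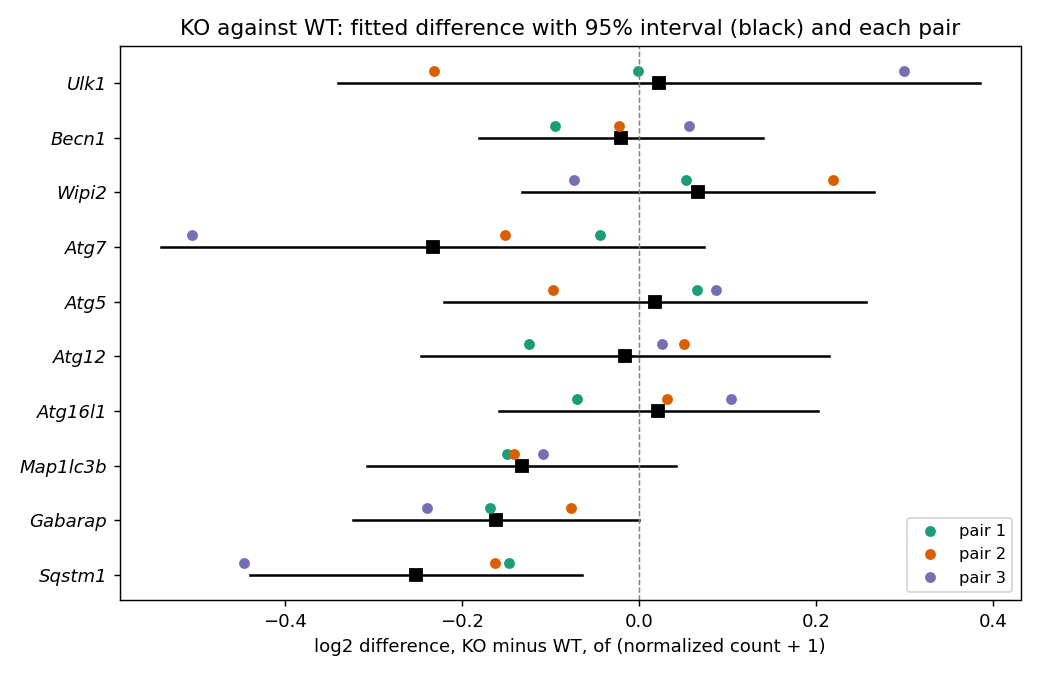
Log2 difference between KO and WT (x axis, on log2 of the normalized count + 1) for each of the 10 genes, with the fitted value as a black square, its 95% interval as a line and the 3 pairs as coloured points. The interval lies below 0 only for *Sqstm1* and *Gabarap*, whose adjusted *p*-values were 0.970, and the points of pair 3 reach −0.50 for *Atg7* and −0.45 for *Sqstm1*.

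ATG7 is the enzyme that activates both ATG12 and the LC3 family for conjugation. *Atg7* (ENSMUSG00000030314, plus strand of chromosome 6, 114643097 to 114860614) had 161, 159 and 178 normalized counts in WT and 156, 143 and 125 in KO libraries of pairs 1, 2 and 3. It was the only gene of the 10 whose KO libraries all lay below its WT libraries, which held for 3.44% of all genes tested. The KO/WT ratio was 0.970, 0.900 and 0.703, so the pairs differed widely. The log2 fold change was −0.23 (standard error 0.13, 95% interval −0.54 to 0.074, unadjusted *p* = 0.114 from limma), and −0.098 without pair 3. These values rest on 138 to 170 fragments per library, for which counting alone gives an error of up to 8.51%.

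ATG12 is joined by ATG7 and a second enzyme to ATG5, and the conjugate binds ATG16L1, which places LC3 on the membrane. *Atg5* (ENSMUSG00000038160, plus strand of chromosome 10, 44268358 to 44364291) had 179, 207 and 171 normalized counts in WT and 188, 193 and 182 in KO libraries, with a log2 fold change of 0.018 (95% interval −0.22 to 0.26). *Atg12* (ENSMUSG00000032905, minus strand of chromosome 18, 46730144 to 46741580) had 218, 192 and 196 in WT and 200.1, 199 and 199.8 in KO libraries, with a log2 fold change of −0.016 (95% interval −0.25 to 0.21). *Atg16l1* (ENSMUSG00000026289, plus strand of chromosome 1, 87755870 to 87792428) had 466, 449.6 and 456 in WT and 444, 459 and 490.3 in KO libraries, with a log2 fold change of 0.022 (95% interval −0.16 to 0.20). In each of these 3 genes the groups overlapped and 2 pairs were higher and 1 lower in KO. The intervals allow KO levels from 0.843 to 1.19 times those of WT.

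ULK1 is the kinase that starts autophagy under the control of mTORC1 and AMPK, Beclin 1 is a subunit of the VPS34 lipid kinase complex, and WIPI2 binds the lipid PI3P that this complex makes and recruits ATG16L1. *Ulk1* (ENSMUSG00000029512, minus strand of chromosome 5, 110784488 to 110810097) was the lowest of the 10, with 105, 109 and 75.9 normalized counts in WT and 105, 92.5 and 93.5 in KO libraries. Its pairs went in different directions, with KO/WT ratios of 0.999, 0.850 and 1.23, and its log2 fold change was 0.022 with a wide 95% interval of −0.34 to 0.38. The WT library of pair 3, where *Ulk1* was lowest, had 63 fragments on the gene, a counting error of 12.6%. *Becn1* (ENSMUSG00000035086, minus strand of chromosome 11, 101285952 to 101302286) varied least, with 819, 776 and 750.1 normalized counts in WT and 766, 764 and 780.0 in KO libraries. Its highest library was 1.09 times its lowest, against 1.75 times for *Sqstm1*, and its log2 fold change was −0.021 (95% interval −0.18 to 0.14). *Wipi2* (ENSMUSG00000029578, plus strand of chromosome 5, 142627698 to 142670588) had 495, 453 and 529 normalized counts in WT and 513, 527 and 502 in KO libraries. It was higher in KO in pairs 1 and 2 and lower in pair 3, and its log2 fold change of 0.066 (95% interval −0.13 to 0.26) was the highest of the 10.

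The rest of the autophagy route was read from 8 lists of 76 other genes, of which 73 could be tested. None was called at an adjusted *p* of 0.05, 36 had a negative and 37 a positive log2 fold change, and their median was 0.0073. In all 3 pairs 10 of the 73 were lower (13.7%, against 13.1% of all genes) and 6 higher (8.22%, against 11.7%). At an unadjusted *p* under 0.05 in limma there was 1 gene, *Plekhm1*, an adaptor that brings autophagosomes to lysosomes. It had 112, 105 and 104 normalized counts in WT and 173, 117 and 143 in KO libraries, with no overlap between the genotypes (KO higher without overlap in 3.39% of all genes). Its log2 fold change was 0.42 (standard error 0.13, unadjusted *p* = 0.0189 and adjusted *p* = 0.970 from limma). Among 16 genes of autophagosome and lysosome fusion, *Lamp2*, a lysosomal membrane protein, had the lowest log2 fold change (−0.20).

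Of 14 genes of the ULK1 complex and its regulators, 8 had log2 fold changes below 0, from −0.36 for *Atg13*, a subunit of the ULK1 complex, to 0.10 for *Prkag1*, a subunit of AMPK. *Atg13* was higher in KO in pair 1 (157 against 127 normalized counts) and lower in pair 2 (65.8 against 98.3) and pair 3 (88.1 against 154). All 7 genes of the Beclin 1 lipid kinase complex had a positive value, but these were small, from 0.0073 for the inhibitor *Rubcn* to 0.31 for *Atg14*, the subunit that directs the complex to autophagy, which was the only one of the 7 to be higher in all 3 pairs. The lipid transfer gene *Atg2a* (−0.15) and the PI3P-binding *Wipi1* (0.31) bounded the membrane supply list, and *Wipi1* had only 9.41 to 37.8 normalized counts (standard error 0.36). *Atg10* (−0.17) and *Atg4d* (0.21), enzymes that join ATG12 to ATG5 and process the LC3 family, bounded the conjugation list.

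Of 8 cargo receptors other than p62, 6 had a negative log2 fold change with a median of −0.030, from −0.28 for *Calcoco1* to 0.096 for *Bnip3l*, a mitophagy receptor. *Nbr1*, which like p62 binds ubiquitinated cargo, was lower in all 3 pairs, with KO/WT ratios of 0.946, 0.916 and 0.904 and a log2 fold change of −0.12 (unadjusted *p* = 0.119 from limma). *Fundc1*, a mitophagy receptor, was also lower in all 3 (log2 fold change −0.17), which makes 2 of 8 (25%, against 13.1% of all genes). In the other direction, *Bnip3l* was higher in all 3 pairs (12.5% of the list, against 11.7% of all genes). Receptors for ER-phagy, by which parts of the ER are degraded, had a median of −0.015 over 6 genes, from −0.19 for *Tex264* to 0.24 for *Ccpg1*. *Tex264* was lower in all 3 pairs, with 187, 224 and 266 normalized counts in WT and 184, 184 and 219.7 in KO libraries (unadjusted *p* = 0.102 from limma). *Rtn3* was also lower in all 3 (log2 fold change −0.083), which makes 2 of 6 (33.3%, against 13.1% of all genes). Cargo and ER-phagy receptors had the highest such shares of the 8 lists, and the other lists ran from 0% to 16.7%. The 6 transcriptional regulators had a median of 0.048, from −0.047 for *Zkscan3*, a repressor of autophagy genes, to 0.20 for *Mitf*, which had only 8.43 to 17.2 normalized counts. *Tfeb*, their best known activator, had a log2 fold change of 0.058.

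**Figure D3:**
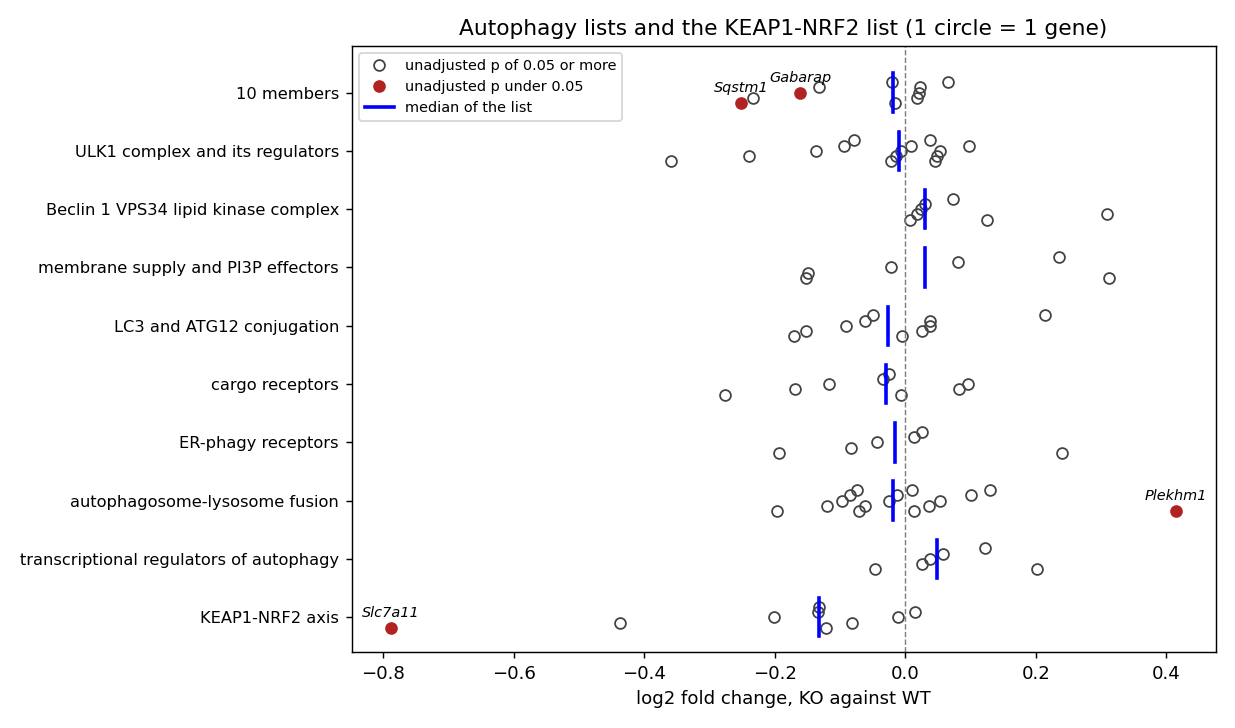
Log2 fold change between KO and WT (x axis) of each tested gene in the 10 members, the 8 other autophagy lists and the KEAP1-NRF2 list, with list medians as blue bars and genes at an unadjusted *p* under 0.05 in red. The 4 genes in red are *Sqstm1*, *Gabarap*, *Plekhm1* and *Slc7a11*, and the medians of the 8 other autophagy lists lie between −0.030 and 0.048.

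p62 also binds KEAP1, the protein that keeps the antioxidant factor NRF2 low, and *Sqstm1* is a known target of NRF2, so 10 genes of that axis were set beside it. Of the 9 tested, 8 had a negative log2 fold change (6135 of 12322 among all genes tested), with a median of −0.13, and 0 were called. The median log2 difference of the list was −0.030, −0.068 and −0.32 in pairs 1, 2 and 3. *Keap1* (−0.011) and *Nfe2l2*, the gene of NRF2 (0.015, the highest of the list), were near 0. *Slc7a11*, a subunit of the cystine transporter and a known target of both NRF2 and ATF4, had the lowest value. It had 111, 72.1 and 139.7 normalized counts in WT and 80.2, 45.8 and 58.1 in KO libraries of pairs 1, 2 and 3, a log2 fold change of −0.79 (standard error 0.19, unadjusted *p* = 0.00496 and adjusted *p* = 0.737 from limma). It was lower in all 3 pairs, as was *Gclm* (log2 fold change −0.20), which encodes a subunit of the enzyme of glutathione synthesis. That makes 2 of 9 lower in all 3 pairs (22.2%, against 13.1% of all genes). The other 5 tested ranged from −0.44 for *Hmox1* to −0.082 for *Gclc* and differed in direction between pairs.

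The libraries had the same order for *Sqstm1* as for *Atf4* and for 2 Ig heavy chain V genes. *Atf4* encodes the transcription factor of the integrated stress response. Over the 6 libraries, it had the highest Pearson correlation with *Sqstm1* of the 12321 other genes tested, computed on log2 values (r = 0.9999, Spearman's rho 1.00). The 2 Ig heavy chain V genes, of a family whose members share near-identical sequence, followed (r = 0.998 and 0.997, rho 1.00 for both). *Atf4* had 2318, 2009.5 and 2382 normalized counts in WT and 2229, 1933 and 2120.2 in KO libraries, so that pair 2 was the lowest for both genes, and its range was narrower than that of *Sqstm1*. The genes most like *Map1lc3b* were *Pdia4* (r = 0.997), an ER protein disulfide isomerase, *Syne2* (r = 0.993) and *Slc39a9* (r = 0.993). These are the best of 12321 genes over 6 libraries that share pairs, and are given as a description. Among the 10 autophagy genes, the correlation over the 6 libraries ran from −0.81 (*Atg5* and *Sqstm1*) to 0.85 (*Sqstm1* and *Gabarap*), and was 0.81 for *Sqstm1* and *Map1lc3b*.

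**Figure D4:**
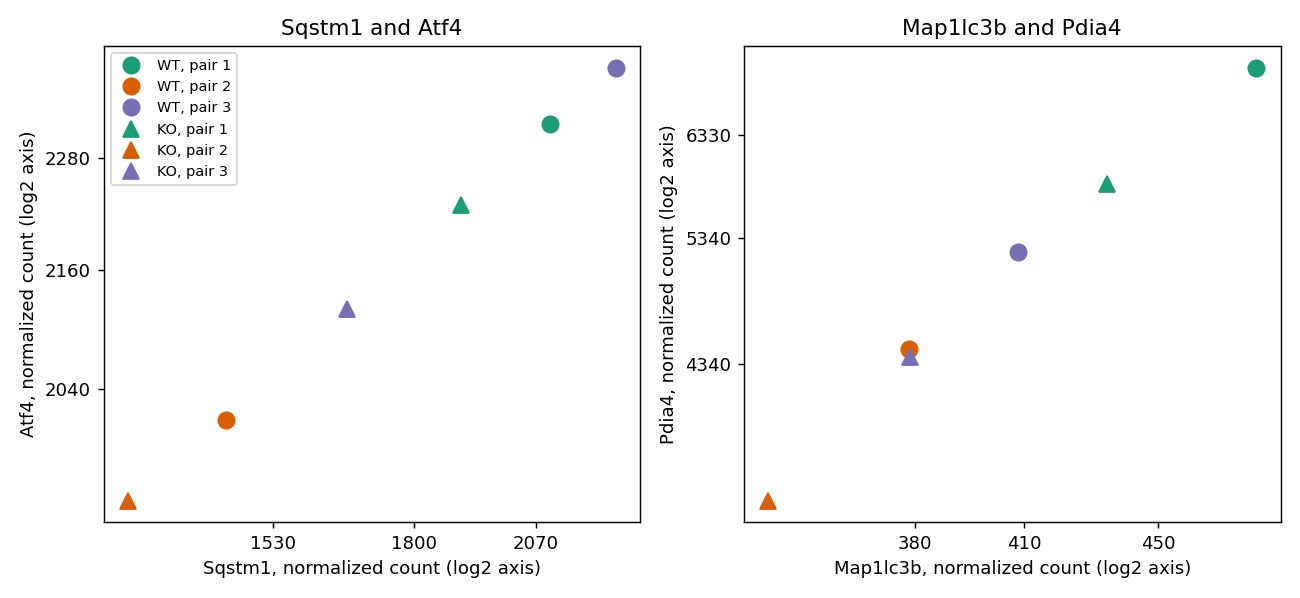
Normalized counts of *Sqstm1* against *Atf4* (left) and of *Map1lc3b* against *Pdia4* (right), both axes on a log2 scale and not starting at 0, with 1 point per library, circles for WT, triangles for KO and colours for pairs. In both panels the 6 points lie close to a line (r = 0.9999 and 0.997, the highest of 12321 genes), the KO point of pair 2 is the lowest, and within each pair the triangle lies below the circle.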

How the data were processed

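Adapters were removed by the authors with cutadapt, reads (75-nt, paired-end) were aligned to GRCm38 with STAR 2.6.1a, and properly paired fragments were counted by strand on Gencode vM19 exons with featureCounts (Subread 1.6.3), at a mapping quality of at least 10. The deposited values are counts divided by DESeq2 size factors, a signal on the scale of counts. In every library 100% of values came out whole in steps of 1 fragment (tolerance 0.02 steps), which gave back fragments. Symbols and exons came from Gencode vM21 (54409 of 54446 identifiers matched). limma 3.58.1 in R 4.3.3 (trend, pseudocount 1, mean of at least 10) was fitted over all 12322 genes with the pair as a block. The recovered fragments were tested with edgeR 4.0.16 and with DESeq2 1.42.0. Each replicate was a pair of littermates, per the study's methods. Over genes, the deviations of paired libraries from their group means correlated at 0.328, 0.685 and 0.170 in pairs 1, 2 and 3. The deviation was thus shared most in pair 2 and only weakly in pair 3. The scripts were tested on simulated counts. The members, lists and tests were chosen with earlier results of these data known. Genes named beyond the 10 are those with an unadjusted *p* under 0.05 and the lowest and highest of each list. The 3 genes most like *Map1lc3b*, the gene most like *Sqstm1* and some cell type markers are also named. *Map1lc3a*, *Gabarapl1*, *Gabarapl2*, *Tfeb*, *Keap1*, *Gclm*, *Hmox1*, *Gclc*, *Nbr1*, *Rtn3* and *Fundc1* were added after their values were seen. The printed promoters and the motifs searched were also chosen after the values were seen. Intervals of counting cover counting error only.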

Additional observations from a re-analysis of the deposited data

How the results depend on the processing

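Under 13 alternatives to the scaling, filter, pseudocount, block, test and replicates, none of the 10 genes passed an adjusted *p* of 0.05 (the smallest was 0.351). Of 130 fitted values 123 kept their direction, and *Sqstm1*, *Gabarap*, *Map1lc3b* and *Atg7* stayed negative in all 13. Much of this was fixed in advance. A change of filter or block leaves the limma log2 fold change as it was. A gene lower in all 3 pairs also stays negative with 1 of them left out. The number of the 10 at an unadjusted *p* under 0.05 was 1 with no filter, with the filter at a mean of 50, under TMM scaling, under quantile normalization and in DESeq2, and 0 in limma and in edgeR when no replicate block was used, and from 0 to 1 with 1 replicate left out. When the replicate block was dropped, the number of all genes tested at an unadjusted *p* under 0.05 went from 373 lower and 206 higher to 170 and 126 in limma, and from 368 and 200 to 187 and 126 in edgeR, while the count at an adjusted *p* of 0.05 was 0 with and without it in both tools. The median log2 fold change of the 10 ran from −0.078 (without replicate 3) to 0.0057 (without replicate 1). The 7 values that changed direction did so with 1 replicate left out, in which *Atg5* ran from −0.016 to 0.076, *Atg12* from −0.049 to 0.038, *Atg16l1* from −0.019 to 0.067, *Becn1* from −0.059 to 0.017, *Ulk1* from −0.12 to 0.15 and *Wipi2* from −0.010 to 0.14. Over all genes, DESeq2 called 22 lower and 1 higher, and leaving out 1 replicate gave from 0 to 168 lower and from 0 to 3 higher, the most without replicate 1; the cause was not tested. The number of fragments limits *Ulk1*, *Atg7*, *Atg5* and *Atg12* most.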
